A study of Homo sapiens with 5 samples.

Results

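Interferon-stimulated genes, with the OAS family at their centre, were followed in PC9, an established line of human lung adenocarcinoma driven by mutant EGFR. They are 29 genes chosen by symbol, 4 of the OAS family and 25 others, out of 27477 genes in the authors' deposited table. Of the 29, 27 have a row, and the expression of IFITM1 and XAF1 is not analysed here. RNA-seq libraries came from 2 samples of drug-tolerant cells and 3 samples of parental cells. The drug-tolerant cells had received the EGFR kinase inhibitor gefitinib at 50 nM for 6 days and then growth medium for 3 days. The titles separate these cells from parental PC9 cells, although the labels repeat the treatment text for all 5 samples. Both groups are the same line in RPMI medium with serum, and the labels do not say whether samples came from separate cultures, so p-values measure a spread between libraries that may be technical.

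Interferons bind receptors that activate JAK kinases, which activate transcription factors. STAT2 and IRF9 are subunits of the complex that binds the interferon-stimulated response element in target promoters. Among the targets are sensors of double-stranded RNA, such as RIG-I and MDA5, and effectors that act on viral RNA or membranes. The oligoadenylate synthetases OAS1, OAS2 and OAS3 bind double-stranded RNA and make 2'-5' linked oligoadenylates, which set off the decay of RNA, while OASL lacks this activity and acts with RIG-I.

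Of the 27 members with a row, 21 had an adjusted p in the authors' deposited table, and the 6 without one (OAS2, IRF9, RSAD2, CMPK2, IFI27 and IFI44L) had means below 8.23, the lowest mean of a gene with one. The authors' deposited table called 1 of these 21, OAS1, at an adjusted p under 0.05 (DESeq2), against 0.552% of the 15223 genes tested in all. Throughout, a called gene is one that passed this threshold, and a positive log2 fold change is higher in drug-tolerant cells. At an unadjusted p under 0.05 the authors' deposited table held 4 of the 21 (OAS1, OAS3, IFIT5 and IFITM3), against 10.8% of all genes tested.

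The table has no column per library, but its means are sums of whole reads, 1 step per library, and its fold changes and errors fix which reads gave them. Reads could so be recovered for all 27 members and are given as normalized reads, that is reads divided by the library's size factor. The libraries are named drug-tolerant a and b and parental a, b and c, since they cannot be matched to replicate numbers. Depths estimated from the size factors and the total of the mean levels were about 20.4 and 14.2 M reads in the drug-tolerant libraries, against 21.4, 18.3 and 17.3 M in the parental ones. Among 7271 genes with recovered reads, 1 library stood apart from its label: parental a lay nearer the mean of the drug-tolerant libraries than that of parental b and c in 74.5% of genes. A chi-square per degree of freedom was 4.18 and 3.89 between parental a and either drug-tolerant library, against 17.6 and 18.3 between parental a and parental b and c. The drug-tolerant libraries differed from each other by 1.31 and parental b and c by 1.43, where 1 is counting error alone. Transcript length moved with this division. Normalized reads of genes with coding transcripts over 4000 nucleotides, per read of genes under 2000, came to 2.10 and 2.09 in the drug-tolerant libraries and 2.39 in parental a, against at most 1.05 in parental b and c. The reads of the members are therefore set beside parental a and beside parental b and c, while deposited fold changes pool all 3 parental libraries, and the part of the length difference in the results was tested only by removing its trend over all genes.

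OAS1, which makes oligoadenylates on short double-stranded RNA, rose in drug-tolerant cells. It had 423 and 384 normalized reads in the drug-tolerant libraries, against 185, 165 and 143 in parental a, b and c. Both drug-tolerant libraries lay above every parental library, and parental a stood with the other parental libraries for this gene. The mean was 2.46-fold higher in drug-tolerant cells, 2.19-fold higher than in parental a and 2.62-fold higher than in parental b and c. In the authors' deposited table OAS1 had a log2 fold change of 1.16 ± 0.26 (SE, 95% interval 0.65 to 1.66; DESeq2 adjusted p 0.0041). Once the trend over all genes with length and GC content was taken out, the log2 fold change was 1.31 and the adjusted p 0.00044. The call was lost when the score was scaled by its robust SD over all genes (adjusted p 0.97), and it was lost in limma on the recovered reads of all 5 libraries, where the log2 fold change was 1.30 with an unadjusted p of 0.00046 and an adjusted p of 0.30. Without parental a, limma gave 1.39 with an adjusted p of 2.0e-06, in a setting where it called 58.4% of all genes.

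OAS3, whose 3 domains in tandem bind long double-stranded RNA, had 911 and 853 normalized reads in the drug-tolerant libraries, against 595, 211 and 261 in parental a, b and c. The groups did not overlap, but parental a lay between parental b and c and the drug-tolerant libraries. OAS3 was 1.48-fold higher in drug-tolerant cells than in parental a and 3.73-fold higher than in parental b and c. In the authors' deposited table its log2 fold change was 0.97 ± 0.36 (SE; DESeq2 adjusted p 0.30), so it was not called. Its longest coding transcript has 6719 nucleotides, and with the length trend removed the log2 fold change was 0.70 with an adjusted p of 0.69. In limma, OAS3 had an adjusted p of 0.39 over all 5 libraries and of 2.3e-07 without parental a, with a log2 fold change of 1.91. Without parental a limma called 58.4% of all genes.

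OAS2, the synthetase that works as a dimer, was near 0. It had 8 and 3 reads in the drug-tolerant libraries, against 1, 0 and 1 in parental a, b and c. The ratio of reads per depth was 9.07, with an exact 95% interval of 1.98 to 84.2 that covers counting error only. Its log2 fold change in the authors' deposited table was 0.59 ± 0.33 (SE), with no adjusted p. OASL had 30.0 and 36.8 normalized reads in the drug-tolerant libraries, against 28.5, 41.3 and 31.2 in the parental ones. The groups overlapped, and in the authors' deposited table the log2 fold change was -0.01 ± 0.36 (SE, 95% interval -0.72 to 0.70, adjusted p 0.99, DESeq2). The sign of this value turned with the length trend removed (0.0034).

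Per kilobase of the longest coding transcript, OAS1 was at 175 and 159 normalized reads in the drug-tolerant libraries, against 76.4, 68.3 and 59.0 in parental a, b and c. On the same scale OAS3 was at 136 and 127 in the drug-tolerant libraries, against 88.6, 31.4 and 38.9 in the parental ones, so OAS1 was the higher of the pair in every library but parental a. OASL reached 9.18 and 11.3 per kilobase in the drug-tolerant libraries, against 8.74, 12.6 and 9.56 in the parental ones, and OAS2 stayed at or under 1.49 in all 5. Summed over the 4 genes, normalized reads came to 1371 and 1278 in the drug-tolerant libraries, against 809, 418 and 436 in parental a, b and c. The sum over the 23 other members was 1919 and 1810 in the drug-tolerant libraries, against 2261, 1970 and 1983 in the parental ones.

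**Figure D1:**
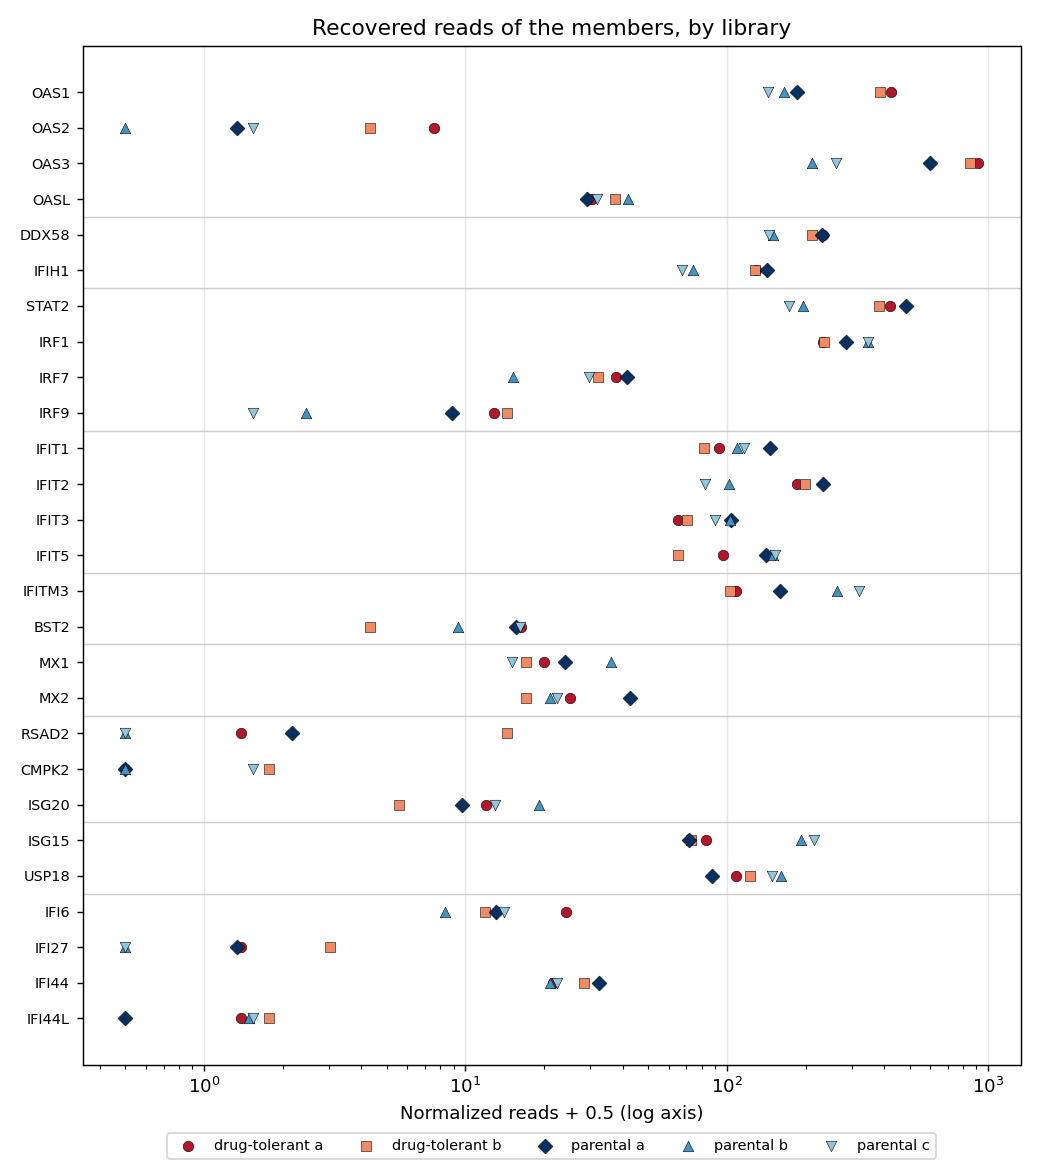
Normalized reads of the 27 members in each library, with 0.5 added, on a log axis; members run down the page by role, with grey lines between roles, red marks for drug-tolerant libraries and blue marks for parental ones. OAS1 at 423 and 384 in the drug-tolerant libraries stands clear of all 3 parental libraries, while for STAT2, IFIH1 and IFIT2 the dark diamond of parental a lies beside the red marks.

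OAS1 (chr12:112906777-112933222), OAS3 (chr12:112938352-112973249) and OAS2 (chr12:112978395-113011723) lie in this order on the plus strand of chromosome 12 (GRCh38, GENCODE 29), and OASL lies apart on the minus strand (chr12:121019111-121039242). An antisense gene, AC004551.1, overlaps all 3 of the cluster. It had a mean of 0.37, and the kit is stranded per the labels, but the strand setting of the counting is unknown here. Genes next to the cluster, DTX1 and RASAL1, were chosen after their values were seen. DTX1 had 24.7 and 22.8 normalized reads in the drug-tolerant libraries, against 17.6, 24.6 and 26.0 in the parental ones, with a log2 fold change of 0.05 ± 0.38 (SE) in the authors' deposited table. RASAL1 had 248 and 273 in the drug-tolerant libraries, against 243, 256 and 264 in the parental ones, and 0.03 ± 0.24 (SE) in the authors' deposited table. Neither neighbour was called.

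The promoters of OAS1 and OAS3, the members with the 2 highest log2 fold changes among those tested, are shown because the response element is what interferon signalling acts through. Each runs from 250 bases before to 50 bases after the start of a RefSeq transcript (GRCh38.p14), on the plus strand, with matches to GAAANGAAA or GAAANNGAAA on either strand in capitals.
OAS1 chr12:112906712-112907011: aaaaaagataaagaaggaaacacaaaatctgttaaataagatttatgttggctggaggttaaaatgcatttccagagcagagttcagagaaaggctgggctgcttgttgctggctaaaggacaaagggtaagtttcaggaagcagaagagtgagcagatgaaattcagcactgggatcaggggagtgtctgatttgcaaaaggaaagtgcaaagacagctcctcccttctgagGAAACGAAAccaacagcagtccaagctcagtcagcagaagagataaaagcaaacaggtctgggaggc
OAS3 chr12:112938224-112938523: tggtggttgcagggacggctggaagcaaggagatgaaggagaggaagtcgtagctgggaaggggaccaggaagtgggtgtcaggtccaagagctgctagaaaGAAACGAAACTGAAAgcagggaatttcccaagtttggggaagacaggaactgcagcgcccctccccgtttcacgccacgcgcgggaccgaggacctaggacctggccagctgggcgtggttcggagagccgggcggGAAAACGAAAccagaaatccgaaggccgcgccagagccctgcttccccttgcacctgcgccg
The OAS1 window holds 1 match, which begins 17 bases before the start and has the 1-base spacer. The OAS3 window holds 3, beginning 148, 143 and 12 bases before it, and the first pair overlap. Over all 35116 RefSeq promoters of this length, 3.12% hold GAAANGAAA, 3.57% hold GAAANNGAAA and 6.40% hold at least 1 of them. Of the 29 members, IFITM1 and XAF1 included, 23 have a promoter in the table, and 26 of their 32 promoters (81.3%) hold a match. The 3 members without one are STAT2, IRF1 and IRF9, and the RefSeq symbol of DDX58 is RIGI. The interferon-gamma activated element, TTCNNNGAA, reads the same on both strands, and 8 of the members' 32 promoters hold it, those of OAS1 and IRF1 among them, against 7.66% of all promoters. A match describes these letters only.

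The RNA sensors were not called. DDX58, which encodes RIG-I, the sensor of short double-stranded RNA with a 5' triphosphate, had 233 and 210.4 normalized reads in the drug-tolerant libraries, against 230.0, 149 and 145 in parental a, b and c. IFIH1, which encodes MDA5, the sensor of long double-stranded RNA, had 129 and 128 in the drug-tolerant libraries, against 142, 73.7 and 66.6 in the parental ones. In both genes parental a was inside or above the drug-tolerant range and parental b and c were below it. Against parental b and c the mean was 1.51-fold higher for DDX58 and 1.83-fold higher for IFIH1. Against parental a it was 0.96-fold and 0.90-fold. In the authors' deposited table the log2 fold changes were 0.29 ± 0.30 (SE, adjusted p 0.64) and 0.34 ± 0.35 (SE, adjusted p 0.64, DESeq2).

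None of the 3 tested transcription factors of the pathway was called. STAT2, a subunit of the response complex, had 421 and 382 normalized reads in the drug-tolerant libraries, against 482, 195 and 173 in parental a, b and c. It was 2.18-fold higher than parental b and c, and parental a was the highest of all 5 libraries. IRF9, the DNA-binding subunit of that complex, had 14 and 11 reads in the drug-tolerant libraries, against 10, 2 and 1 in the parental ones. The ratio of reads per depth was 3.17, with an exact 95% interval of 1.56 to 6.75 for counting error only, and a readthrough gene of the same strand, AL136295.5 with a mean of 6.63, spans IRF9. IRF7, which drives type I interferon genes, had 37.0 and 31.7 normalized reads in the drug-tolerant libraries, against 41.1, 14.7 and 29.1 in the parental ones, and the groups overlapped.

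IRF1, an early interferon-gamma target and activator, ran the other way. It had 232 and 235 normalized reads in the drug-tolerant libraries, against 284, 345 and 346 in parental a, b and c, and the groups did not overlap. Its log2 fold change in the authors' deposited table was -0.43 ± 0.25 (SE; DESeq2 adjusted p 0.49). It overlaps C5orf56 on the opposite strand, which had a mean of 17.8. In the same authors' deposited table STAT2 was at 0.36 ± 0.37 (SE, adjusted p 0.63) and IRF7 at 0.18 ± 0.39 (SE, adjusted p 0.84).

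The IFIT genes lie together on chromosome 10 and did not share a direction. The product of IFIT1 binds viral RNA that lacks host cap methylation. IFIT5 had 96.1 and 64.7 normalized reads in the drug-tolerant libraries, against 140.2, 149 and 152 in parental a, b and c. IFIT1 had 92.6 and 81.1 in the drug-tolerant libraries, against 145, 109 and 116 in the parental ones, and IFIT3 had 64.4 and 69.7, against 103, 102 and 89.5. For these 3 genes every drug-tolerant library lay below every parental library, parental a included. IFIT2 had 185 and 198 in the drug-tolerant libraries, against 232, 101 and 82.2 in the parental ones, so parental a was the highest and parental b and c the lowest.

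In the authors' deposited table the log2 fold changes were -0.73 ± 0.30 (SE) for IFIT5, -0.43 ± 0.29 for IFIT1, -0.47 ± 0.29 for IFIT3 and 0.33 ± 0.37 for IFIT2, with adjusted p-values of 0.38 to 0.66 (DESeq2). No IFIT gene was called. IFIT5 changed little with the length trend removed, at -0.74 with an adjusted p of 0.41. LIPA, with a mean of 2032, is annotated on the opposite strand across IFIT1, IFIT2 and IFIT3, and the family members are close paralogs that can share reads.

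IFITM3 and IFIT5 had the 2 lowest log2 fold changes among the members tested. Their promoters are shown for comparison with those of the OAS genes, on each gene's own strand, minus for IFITM3 and plus for IFIT5, with the same matches in capitals.
IFITM3 chr11:320811-321110: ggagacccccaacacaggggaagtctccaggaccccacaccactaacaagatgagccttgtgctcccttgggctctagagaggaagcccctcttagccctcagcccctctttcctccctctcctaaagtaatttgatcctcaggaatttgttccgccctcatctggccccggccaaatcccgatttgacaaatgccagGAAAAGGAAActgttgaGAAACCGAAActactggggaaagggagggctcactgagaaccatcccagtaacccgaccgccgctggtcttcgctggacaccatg
IFIT5 chr10:89414318-89414617: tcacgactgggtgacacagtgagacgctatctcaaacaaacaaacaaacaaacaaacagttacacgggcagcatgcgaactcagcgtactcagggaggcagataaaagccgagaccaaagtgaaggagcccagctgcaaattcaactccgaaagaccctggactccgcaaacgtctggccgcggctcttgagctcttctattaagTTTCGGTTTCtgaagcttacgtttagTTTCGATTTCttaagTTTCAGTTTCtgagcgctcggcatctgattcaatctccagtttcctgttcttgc
The IFITM3 window holds 2 matches, beginning 52 and 35 bases before the start. The IFIT5 window holds 3, beginning 45, 19 and 4 bases before it, all in the opposite orientation. Matches to the response element letters were present at genes on both sides of the range of fold changes, as in 26 of the members' 32 promoters.

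IFITM3, a membrane protein that blocks virus entry from endosomes, had 108 and 103 normalized reads in the drug-tolerant libraries, against 159, 262 and 320 in parental a, b and c. The groups did not overlap, and parental a was the nearest to the drug-tolerant libraries. The mean in drug-tolerant cells was 0.66-fold that of parental a and 0.36-fold that of parental b and c. The authors' deposited table put it at -0.98 ± 0.33 on the log2 scale (SE; DESeq2 adjusted p 0.18). Its coding transcript has 808 nucleotides, a length at which the median gene had a negative log2 fold change, and with that trend removed the value was -0.51 with an adjusted p of 0.77. IFITM3 has near-identical paralogs, so the share of reads that is its own is uncertain. BST2, or tetherin, which holds budding virions at the cell surface, had 15.9 and 3.80 normalized reads in the drug-tolerant libraries, against 15.1, 8.85 and 15.6 in the parental ones, and the drug-tolerant libraries disagreed with each other. Its log2 fold change in the authors' deposited table was -0.18 ± 0.41 (SE), which became 0.25 with the length trend removed.

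MX1 and MX2, dynamin-like GTPases that trap viral ribonucleoproteins and capsids, were low. MX1 had 19.4 and 16.5 normalized reads in the drug-tolerant libraries, against 23.5, 35.4 and 14.6 in parental a, b and c. MX2 had 24.7 and 16.5 in the drug-tolerant libraries, against 42.0, 20.6 and 21.9 in the parental ones. Both overlapped between the groups, at log2 fold changes of -0.27 ± 0.40 and -0.28 ± 0.40 (SE) in the authors' deposited table (DESeq2 adjusted p 0.74 and 0.73).

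ISG15, a ubiquitin-like protein that is attached to other proteins, had 82.9 and 72.3 normalized reads in the drug-tolerant libraries, against 71.4, 192 and 214 in parental a, b and c. Drug-tolerant cells were thus 1.09-fold parental a but 0.38-fold parental b and c, and the groups overlapped because of parental a alone. The log2 fold change was -0.72 ± 0.37 (SE; DESeq2 adjusted p 0.47) in the authors' deposited table, and -0.25 with the length trend removed. USP18, the protease that removes ISG15 and restrains the interferon receptor, had 108 and 122 in the drug-tolerant libraries, against 87.3, 161 and 148 in the parental ones. It followed the same order, with parental a lowest, and its log2 fold change of -0.16 ± 0.33 (SE) in the authors' deposited table became 0.033 with the length trend removed.

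UBE2L6, the conjugating enzyme of ISG15, is no member but was the 1 gene called in the lists of the pathway. It fell to 180 and 176 normalized reads in the drug-tolerant libraries, against 331, 390.2 and 398 in parental a, b and c. Both drug-tolerant libraries lay below all parental ones, and parental a stood nearer parental b and c than the drug-tolerant libraries. The mean was 0.54-fold that of parental a and 0.45-fold that of parental b and c. In the authors' deposited table its log2 fold change was -0.96 ± 0.25 (SE; DESeq2 adjusted p 0.027). The call was lost with the length trend removed (log2 fold change -0.65, adjusted p 0.20) and with the score scaled by its robust SD (adjusted p 0.97). In limma on recovered reads UBE2L6 had an adjusted p of 0.30 over all 5 libraries and of 2.3e-06 without parental a, where 58.4% of all genes were called.

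The remaining members were at low levels. RSAD2, or viperin, which makes a chain-terminating nucleotide, had 1 and 11 reads in the drug-tolerant libraries, against 2, 0 and 0 in the parental ones, so 1 library held 11 of its 14 reads. CMPK2, a mitochondrial nucleotide kinase whose gene overlaps RSAD2 head to head, had 2 reads in all 5 libraries together. ISG20, a 3'-5' exonuclease of RNA, had 11.5 and 5.07 normalized reads in the drug-tolerant libraries, against 9.23, 18.7 and 12.5 in the parental ones. IFI6, a mitochondrial and endoplasmic reticulum membrane protein, had 23.8 and 11.4 in the drug-tolerant libraries, against 12.6, 7.86 and 13.5 in the parental ones. IFI44 had 21.2 and 27.9 in the drug-tolerant libraries, against 31.9, 20.6 and 21.9 in the parental ones. IFI27 and IFI44L each had 4 reads in all 5 libraries together. The groups overlapped for RSAD2, CMPK2, ISG20, IFI6, IFI44 and IFI44L, and for IFI27 they were apart by less than 1 normalized read.

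**Figure D2:**
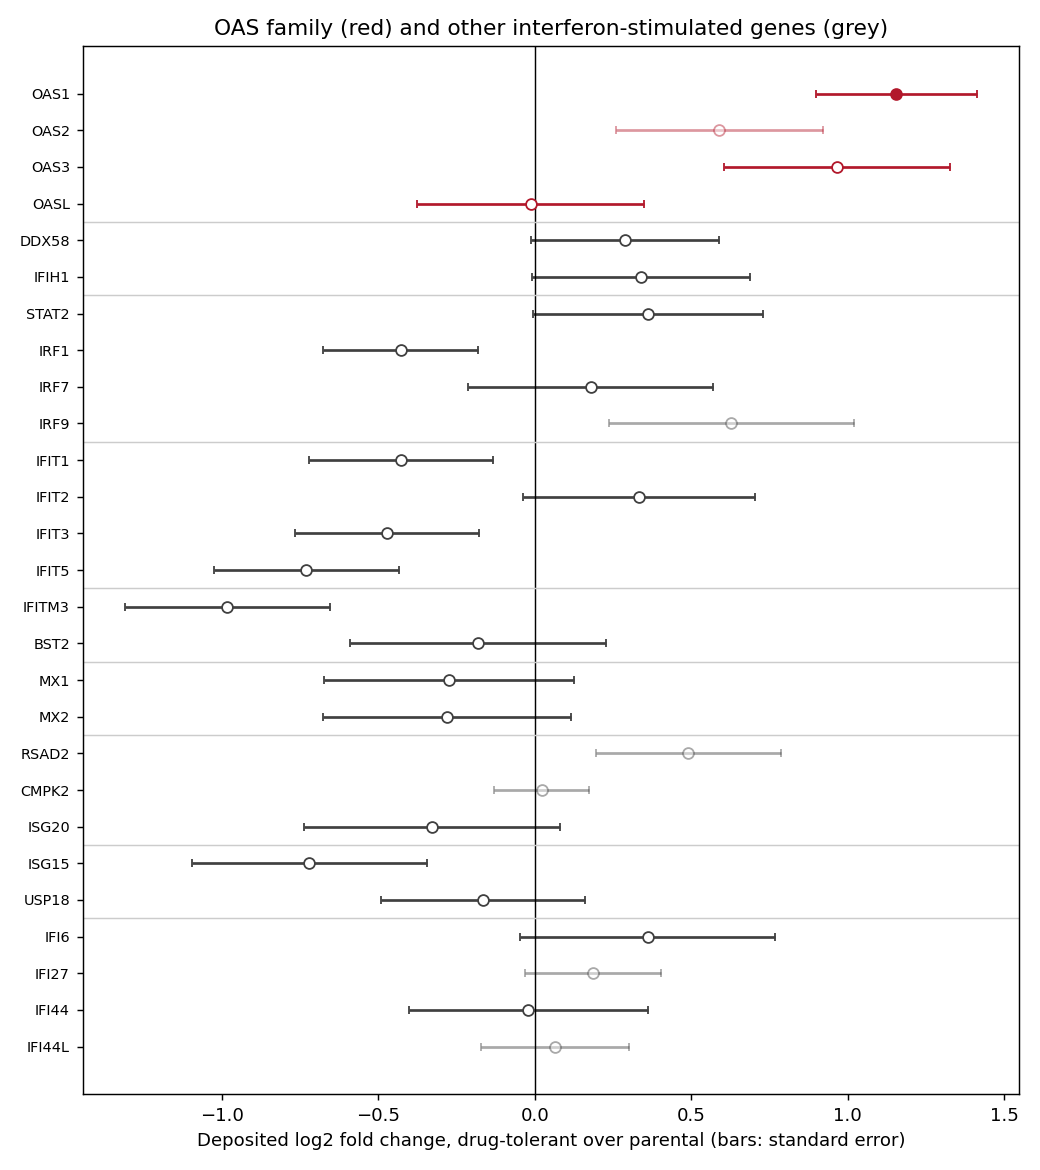
Deposited log2 fold changes of the 27 members, drug-tolerant over parental, with their standard errors; members run down the page by role, red marks are the OAS family, the filled mark is the called gene and pale marks are members without an adjusted p. OAS1 at 1.16 and OAS3 at 0.97 lie at the right, and IFITM3 at -0.98 lies furthest left.

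The OAS family and the other members can be set side by side without a test, since both were listed with results known. Among members tested, the median log2 fold change in the authors' deposited table was 0.97 over 3 OAS genes and -0.23 over 18 others, against -0.02 over all 15223 genes tested. With the length trend removed the medians of the OAS genes and of the others were 0.70 and -0.02. Both OAS medians are the value of a single gene, OAS3, which was not called. Over all members with a row, the deposited medians were 0.78 for the OAS family and -0.02 for the others. The OAS family held 2 positive and 1 negative value, and the others held 6 positive and 12 negative values, from -0.98 to 0.36. OAS1 and OAS3 had the 2 highest values of the 21, followed by STAT2 and IFI6 at 0.36 each in the authors' deposited table. With the length trend removed, IFI6 at 0.83 lay between OAS1 at 1.31 and OAS3 at 0.70.

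Both drug-tolerant libraries lay above all parental ones in 5 members (OAS1, OAS2, OAS3, IRF9 and IFI27) and below all of them in 5 (IRF1, IFIT1, IFIT3, IFIT5 and IFITM3), and the groups overlapped in 17. Among the 19 tested members with a mean up to 300, groups were apart in 6 (31.6%), 1 higher and 5 lower. That is close to the 34.4% of all 7271 recovered genes with groups apart, 15.4% higher and 19.0% lower. Limma over 7273 genes, these with STAT2 and OAS3, called 0.0% of genes and 0 members over all 5 libraries. At an unadjusted p under 0.05 it held 12.0% of genes and 5 of the 21 members. Without parental a, limma called 13 of the 21 members (61.9%), 6 higher and 7 lower, against 58.4% of all genes, 30.4% higher and 28.0% lower. The shares of members with groups apart and of members called without parental a were therefore near those of all genes. Those higher were OAS1, OAS3, DDX58, IFIH1, STAT2 and IFIT2, and those lower were IRF1, IFIT1, IFIT3, IFIT5, IFITM3, ISG15 and USP18.

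**Figure D3:**
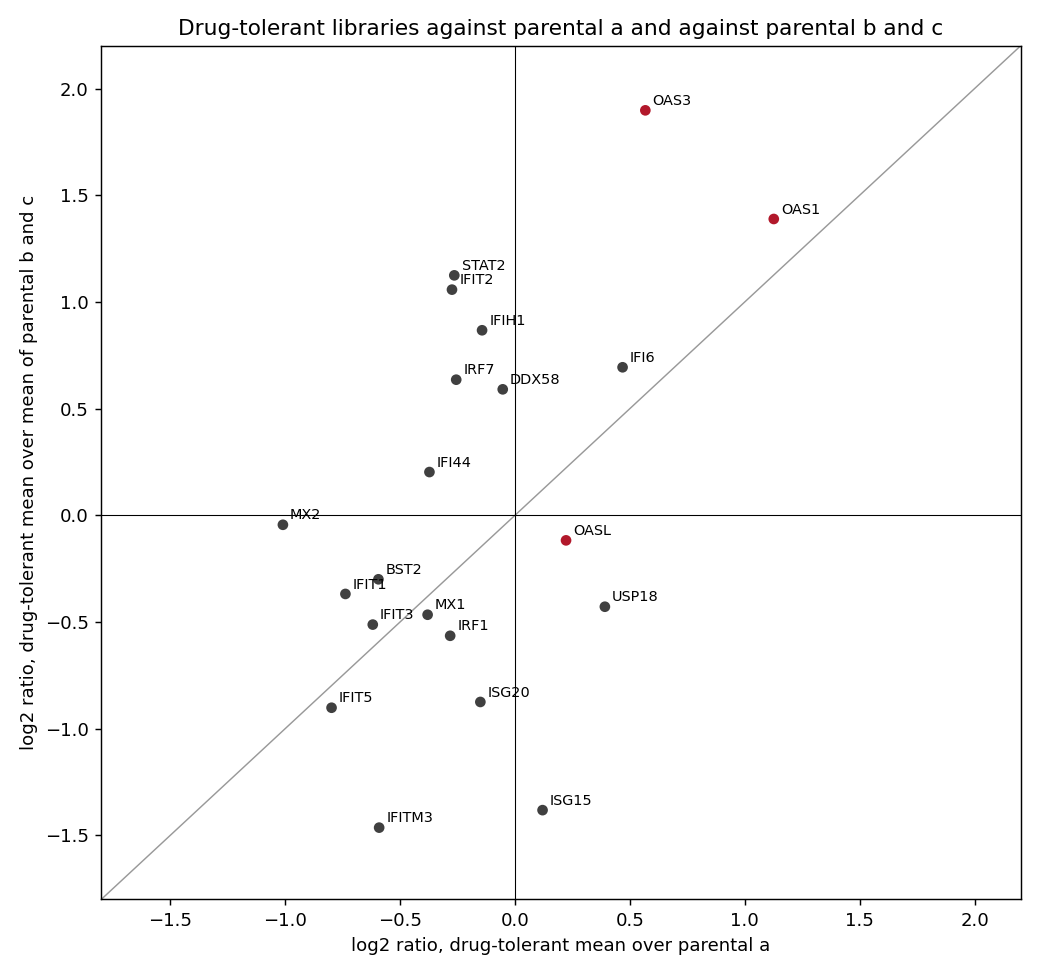
Each point is 1 of the 21 tested members, placed by the log2 ratio of the drug-tolerant mean over parental a (horizontal) and over the mean of parental b and c (vertical), with the OAS family in red; the grey line marks equal ratios. OAS1 at 1.13 and 1.39 lies near the line, whereas STAT2 at -0.26 and 1.12 and ISG15 at 0.12 and -1.38 lie far from it.

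By these ratios the members fell into patterns that the labels alone do not give. Where groups did not overlap, the ratios to parental a and to parental b and c share a sign by definition, so only their sizes are described. OAS1 was at log2 ratios of 1.13 and 1.39, IFIT5 at -0.80 and -0.90, IFIT3 at -0.62 and -0.51, IFIT1 at -0.74 and -0.37 and IRF1 at -0.28 and -0.57. For OAS3 and IFITM3 the sizes differed more, at 0.57 and 1.90 for OAS3 and at -0.59 and -1.46 for IFITM3, further from parental b and c. STAT2, IFIT2, IFIH1, DDX58, IRF7 and IFI44 were positive against parental b and c, from 0.20 to 1.12, and negative against parental a, from -0.37 to -0.05. ISG15, USP18 and OASL were negative against parental b and c and positive against parental a, OASL at -0.12 and 0.22. The other tested members, all with overlapping groups, had 1 sign against both. These patterns were read from the values and have no test.

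**Figure D4:**
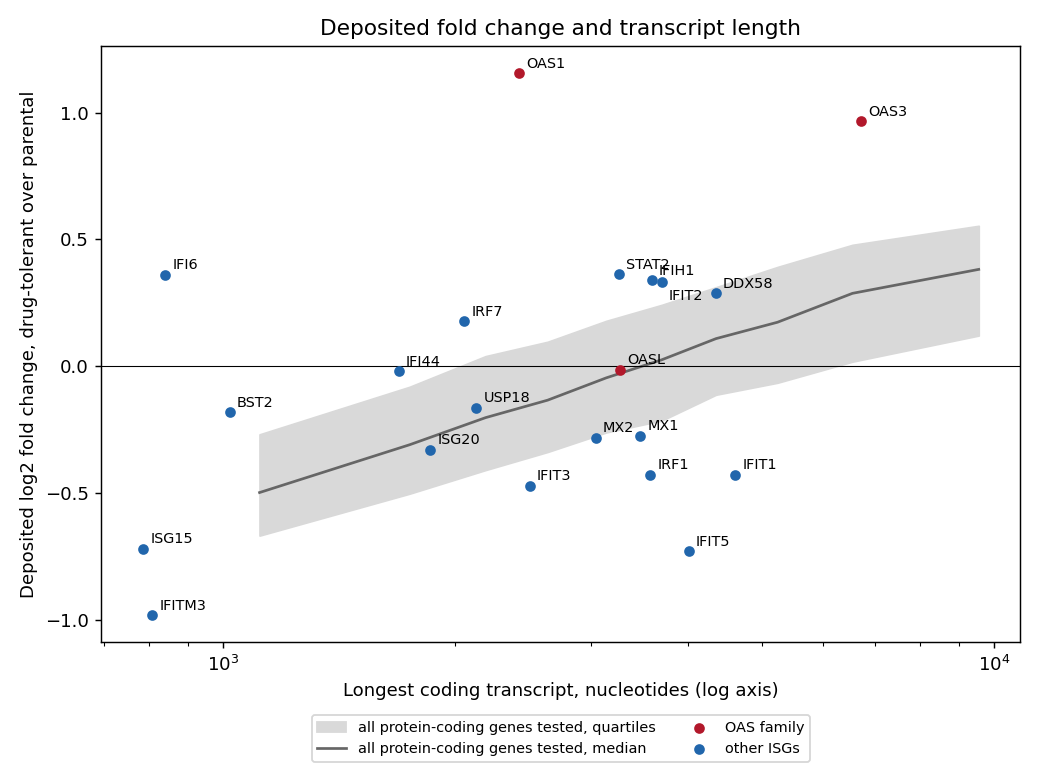
Deposited log2 fold change of the 21 tested members against the length of the longest coding transcript on a log axis, with the OAS family in red and the others in blue; the grey line and band are the median and quartiles of all protein-coding genes tested, in 10 length classes. The band climbs from a median of -0.50 in the shortest class to 0.38 in the longest. OAS1 and OAS3 lie above it, and STAT2, IFIH1, IFIT2, IRF7 and IFI44 also lie above it, by less. IFI6, at 841 nucleotides, lies to the left of the band. With the length trend removed it was at 0.83, against 0.70 for OAS3. IFIT5, IFIT1, IRF1 and IFIT3 are among those below it.

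Other genes of the pathway were taken from lists chosen by role. Of 9 interferon ligands listed, 2 had a row and 1, the epithelial interferon gene IFNE, had an adjusted p. IFNE had 22.9 and 24.1 normalized reads in the drug-tolerant libraries, against 26.0, 2.95 and 3.12 in parental a, b and c, so parental a stood with the drug-tolerant libraries. All 6 listed interferon receptors were tested and none was called, with log2 fold changes from -0.63 (IL10RB, shared by the interferon lambda and interleukin 10 receptors) to 0.13 (IFNAR2, of the type I receptor) in the authors' deposited table. No JAK-STAT transducer among 7 tested was called. STAT3 was at 0.36 ± 0.23 (SE) and the sensor-driven IRF3 at -0.43 ± 0.27 in the authors' deposited table (DESeq2).

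Among 11 tested genes of RNA and DNA sensing the authors' deposited table called none, with the adaptor MAVS at 0.41 ± 0.25 (SE), the kinase IKBKE at -0.38 ± 0.23 and the DNA-sensing adaptor TMEM173 (STING) at -0.47 ± 0.27. DHX58, which encodes LGP2 and was named after its values were seen, had 10.6 and 16.5 normalized reads in the drug-tolerant libraries, against 29.4, 22.6 and 17.7 in the parental ones. All 7 effectors of double-stranded RNA beside the OAS family had positive log2 fold changes in the authors' deposited table; their median was 0.48 and none was called. The 3 with the smallest adjusted p were the mitochondrial ribonuclease PNPT1 at 0.48 ± 0.24 (SE), the 2'-5' phosphodiesterase PDE12, which degrades the OAS product, at 0.50 ± 0.31 and the nucleotide hydrolase SAMHD1 at 0.52 ± 0.33.

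The authors' deposited table called none of the 7 negative regulators. SOCS1, an inhibitor of JAK kinases, had 15.9 and 6.34 normalized reads in the drug-tolerant libraries, against 11.8, 32.4 and 44.8 in the parental ones, and a log2 fold change of -0.69 ± 0.41 (SE) in the authors' deposited table. Among 33 tested genes of a further list of interferon-stimulated genes, the authors' deposited table called 1, UBE2L6, with 17 positive and 16 negative values and a median of 0.01. The immunoproteasome subunits PSMB9 at -0.70 ± 0.30 (SE) and PSMB8 at -0.58 ± 0.28 followed it by adjusted p (0.42 and 0.46, DESeq2) in the authors' deposited table. Their coding transcripts are short, at 792 and 1351 nucleotides, and with the length trend removed from the score the adjusted p-values were 0.92 and 0.91. The chemokines CXCL10 and CXCL11, named after their values were seen, each had 1 read in the drug-tolerant libraries together, against 16 and 12 in the parental ones. The ratios of reads per depth were 0.10 and 0.14, with exact 95% intervals of 0.0025 to 0.66 and 0.0032 to 0.93 for counting error only.

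The libraries had the epithelial markers of the line, with all 8 present at means from 78.2 for MUC1 to 35758 for KRT8 and none called. Of 10 haematopoietic markers 5 had a row, with means from 0.57 to 25.9, and of 5 markers of plasmacytoid dendritic cells, a main source of interferon, 3 had one. Among these, TCF4 was at 484 and the defining markers CLEC4C and LILRA4 are not analysed here. Of 7 fibroblast markers 3 had a row, with COL1A1 at 162. Of 6 endothelial markers 5 had one, with means from 0.34 to 1616, the highest PECAM1, with ESAM at 373, CDH5 at 253 and VWF at 6.61. No marker of another cell type was called, and their part in the results was not tested. In these bulk samples fewer cells expressing a gene and less RNA per cell cannot be told apart.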

How the data were processed

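Poly(A) RNA of PC9 cells was sequenced after TriZol isolation and a stranded mRNA kit, per the labels' protocols. The submitters' processing notes name FastQC, STAR, DESeq2 and build hg38. Versions, counting tool and strand setting: not given in the sources used here. In the 1 table the authors deposited, the mean level is a signal, the mean of reads divided by size factors. Fold changes with standard errors are on the log2 scale in the deposited table, moderated towards 0. The deposited Wald score equals their ratio to within 1.2e-07. Deposited p-values and adjusted p-values were used as given.

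Members, lists and tests were chosen with earlier results of these data known. Every member is named. Of each list up to 3 genes with the lowest adjusted p at a mean of 10 or more are named, with any called gene, and other names are said to be chosen after their values were seen. Some genes under this rule are not reported here. The edgeR test planned for counts was not run, since the table holds none per library.

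Steps per library were taken from genes with 2 reads in 1 library, and the sign of the fold change from 3 libraries pulling it down and 2 up. All whole-number reads that give a member's mean were listed, and those kept that returned the deposited fold change and error in a negative binomial model with a normal prior on each group effect. The fold change was met to within 2.0e-08 for every member, against 9.7e-07 or more for the next set of reads. Reads were recovered likewise for 7271 of 7288 tested genes with a mean up to 300. The recovery of reads, limma and the removal of the trend were tested on simulated data with known answers. For the recovery, simulated fold changes and errors came from the same model that the recovery used. No simulated gene there was set as high as the mean level of OAS3. Limma 3.58.1 (R 4.3.3) with trend was run on log2(normalized reads + 0.5), an addition made after seeing the data. Trend removal used the longest coding transcripts of GENCODE 29 for 12455 genes. With 3 against 2 libraries no exact permutation p goes below 0.1 (one-sided), so none is given. Promoters are RefSeq's. Intervals on reads are exact (Clopper-Pearson) at 95% and cover counting error only.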

Additional observations from a re-analysis of the deposited data

How the results depend on the processing

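OAS1 stayed the 1 member called at an adjusted p under 0.01, with a log2 fold change of at least 1 required, with no filter on low values, at a mean of at least 50 and without the length and GC trend. The share of all genes called is not given here for these settings, nor for the score scaled by its robust SD, where the count was 0 members. In limma on recovered reads the count was 0 members and 0.0% of all genes. At an unadjusted p under 0.05 limma held 5 members and 12.0% of all genes. Leaving out 1 library in limma, the count of members ran from 0 to 13, and OAS1 kept a log2 fold change of 1.21 to 1.39. The 13 were called without parental a, where 58.4% of all genes were called. Without any other library 0 members and 0.0% of all genes were called. Calls in the pathway lists went from 1 to 0 with the trend removed and 0 with the score scaled; in each case the cause was not tested. The OAS median by recovered reads was 1.04 to 1.39 without each library in turn, against 1.30 with all and 0.97 as deposited. Members with groups apart ran from 5 to 11 higher and 5 to 8 lower when a library was left out, the highest without parental a (11 and 8) or a drug-tolerant library (8). Leaving out a library can only add to such counts, for any gene. The share of all genes with groups apart was not taken in these settings, so the rise is not a result about the members. Signs turned with the trend removed for OASL (0.0034), BST2 (0.25), USP18 (0.033) and IFI44 (0.32), and for OASL when centred (0.0055); none was called. No paired analysis was possible because the recovered libraries carry no replicate numbers. Counting parental b and c as 1 library, or a pseudocount of 1, turned no called value. Depth limits the 6 members without an adjusted p, 38 reads or fewer each, where a difference was not detectable by the authors' test.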
